A study of Mus musculus with 6 samples.

Results

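The brush border structure genes (10 of the 27546 genes in the deposited table) are named components of the microvilli of absorptive cells, taken from the table by symbol, and all 10 passed the filter on low values. They were villin (Vil1), espin (Espn) and Eps8 of the actin core, the protocadherins Cdhr2 and Cdhr5 with their partners Ush1c and Myo7b of the intermicrovillar adhesion complex, the membrane linkers Myo1a and ezrin (Ezr), and the raft protein Mal. RNA-Seq had been carried out on total RNA of colon from 3 Gm31629-/- mice and 3 littermate WT mice of the C57BL/6 strain, 8 weeks old. The table holds 1 column per labeled mouse, while the methods speak of pooled RNA, so the p-values measure the spread between these 6 libraries. The knockout targets the long noncoding RNA gene Gm31629, and its level was not analysed here. All 6 mice had drunk 3% DSS (dextran sulfate sodium, which injures the colonic epithelium) for 7 days and were killed on day 8. Genotypes were thus compared in the injured colon, with no untreated mice.

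The intestinal brush border is the carpet of microvilli on the lumenal face of absorptive enterocytes and colonocytes. Each microvillus holds a core of parallel actin filaments tied together by bundling proteins, motors and linker proteins fasten the membrane to that core, and protocadherins at the tips join neighboring microvilli into an ordered array. Many genes of this structure rise as cells leave the crypt and mature, so they are often read as marks of absorptive differentiation. Some, such as Eps8 and Mal, are also made in other cells, so a level is not a readout of that alone.

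Values are FPKM, fragments per kilobase of gene and scaled to the mapped fragments of the library, so levels of different genes within a library may be set beside each other. The depth recovered from the table was 17987100 to 18776400 fragments per library. Genotypes were compared with limma on log2(FPKM + 1) over 14657 genes. A gene passed the test when its p, adjusted by Benjamini-Hochberg over all tested genes, was under 0.05, and was called when its log2 fold change also lay beyond 1 (SE, standard error). Features of the libraries precede the results. Gm31629-/- mouse 1 was the only library with transcripts of 4 Y-linked genes and nearly lacked Xist, whereas the methods state that male mice were used, and values without this mouse are given beside genes described in detail where they change a call. Levels of cell type markers also differed. Of 13 epithelial markers fixed for the comparison, 12 had a negative log2 fold change and 8 passed the test as lower, with a summed level of 5708 to 7067 FPKM in Gm31629-/- mice and 9931 to 10770 FPKM in WT mice. All 12 smooth muscle markers passed as higher (summed level 1604 to 2618 FPKM against 28.3 to 54.3 FPKM in WT mice), as did 9 of 10 leukocyte markers (492 to 887 against 42.9 to 55.6 FPKM), all 7 fibroblast markers (167 to 499 against 18.7 to 37.04 FPKM), all 6 endothelial markers (32.7 to 70.8 against 2.04 to 5.06 FPKM) and 10 of 11 tested neuron and glia markers (43.3 to 146 against 2.85 to 5.45 FPKM), of which Elavl4 was at 0 in every WT library. In bulk tissue, fewer epithelial cells and less RNA of a gene per epithelial cell cannot be told apart. Results for the 10 genes are therefore also given after the libraries were rescaled to equal levels of the 13 epithelial markers, a scale on which the median log2 fold change of all tested genes was 0.70 in place of 0.15. The 13 markers did not move alike, with log2 fold changes from −1.63 (Esrp1) to 0.005 (Epcam), and −0.04 for Cdh1. Values on this scale therefore depend on which markers were averaged.

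Of the 10 brush border genes, 4 passed the test as lower in Gm31629-/- mice, namely Mal, Myo7b, Ush1c and Vil1, where 14.6% of all tested genes passed as lower. None passed as higher, where 28.9% of all tested genes did. Mal and Myo7b were also called at the fold threshold, 2 of 10 genes against 4.64% of all tested genes. All 3 Gm31629-/- values lay below all 3 WT values for 6 of the 10 genes, against 21.5% of tested genes, and above them for Eps8 alone, against 36.3%. The median log2 fold change was −0.64 over the 10 genes and 0.15 over all tested genes. Among the 7242 genes with a mean of at least 5 FPKM, which include all 10, the median was −0.08. In a fit of those genes 21.1% passed as lower and 19.4% as higher, and the same 4 of the 10 passed as lower. On the epithelial marker scale the median of the 10 was 0.09, with Mal and Myo7b passing as lower and Eps8, Cdhr5 and Ezr passing as higher, where 2.69% and 53.5% of all tested genes did. The 13 epithelial markers themselves had a median of −0.64 as deposited and 0.09 after rescaling. The rescaling makes their mean log2 level equal in all libraries, so a value near 0 was fixed in advance for these 13. With median-ratio scaling the median of the 10 was −0.90, against −0.05 over all tested genes, and 6 passed as lower (Vil1, Espn, Ush1c, Myo7b, Myo1a and Mal), where 24.8% of all tested genes did. Without any 1 of the WT mice, 2 of the 10 passed as lower, Myo7b and Mal. Without WT mice 1 to 3, 8.63%, 11.2% and 6.69% of all tested genes passed as lower.

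**Figure D1:**
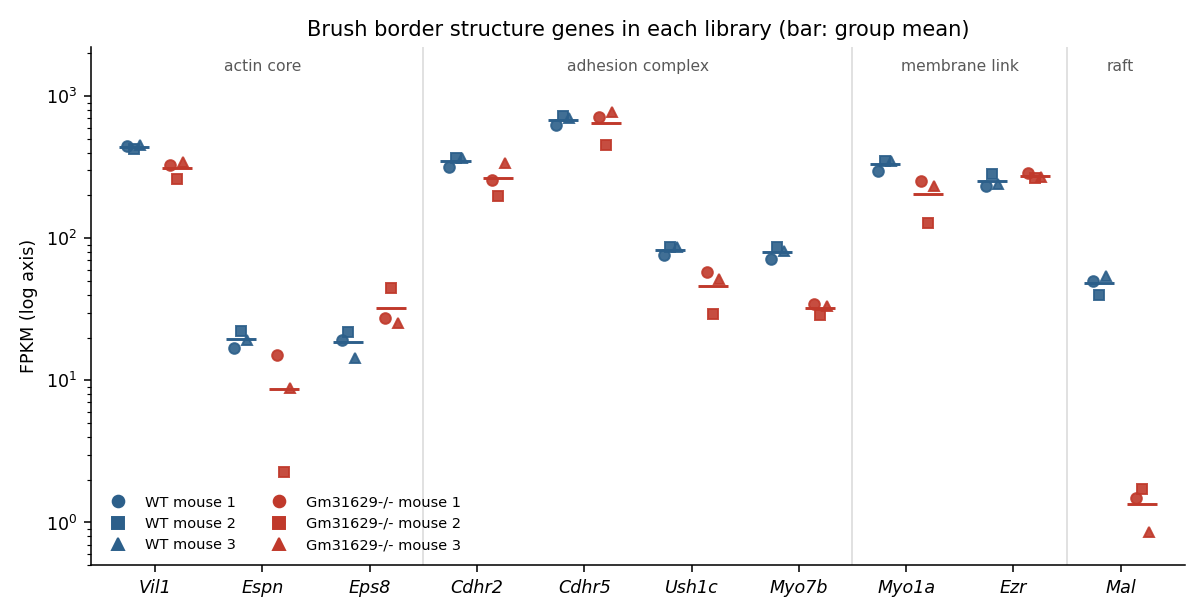
FPKM of the 10 brush border genes in each library on a log axis, with WT mice in blue, Gm31629-/- mice in red, symbols for mouse number and bars for group means. Mal falls from 48.1 to 1.36 FPKM on average, Myo7b separates fully, and Gm31629-/- mouse 2 is the lowest of its group for 8 of the 10 genes.

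Mal (ENSMUSG00000027375, chromosome 2, 127633226 to 127656695 of GRCm38, minus strand) encodes a small membrane protein of glycolipid rafts that takes part in delivery of cargo to the apical surface. It was the member that differed most. Its level was 50.2, 40.0 and 54.2 FPKM in WT mice 1 to 3 and 1.49, 1.72 and 0.862 FPKM in Gm31629-/- mice 1 to 3. The groups lay far apart, and the Gm31629-/- values rested on 44 to 88 fragments per library against 1998 to 2825 in WT mice. The ratio of group means was 35.5, and the log2 fold change was −4.39 (SE 0.20, limma adjusted p = 9.09e-05). It passed in 6 of 6 fits that each left out 1 mouse and on the epithelial marker scale (log2 fold change −3.81, limma adjusted p = 4.12e-05).

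Mal is also made outside absorptive cells, in myelinating glia and in stratified squamous epithelium, so markers of both were read beside it. Neuron and glia markers moved the opposite way, as given above. Squamous markers were scarce, with a sum over 9 genes of 1.79 to 5.30 FPKM in Gm31629-/- mice and 0.596 to 0.771 FPKM in WT mice, Krt4 was at 0 in every Gm31629-/- library, and Krt5, Dsg3, Trp63 and Krtdap were at 0 in every WT library. The 2 relatives of Mal were lower by less. Mal2, which acts in transcytosis to the apical membrane, had 112, 161 and 88.7 FPKM in WT mice, compared with 69.9, 55.8 and 56.7 FPKM in Gm31629-/- mice (log2 fold change −0.94, limma adjusted p = 0.0165), and it did not pass without Gm31629-/- mouse 3 (0.0518). Mall had 274 ± 11.8 and 150 ± 13.7 FPKM (SD, n = 3 each; limma log2 fold change −0.87, adjusted p = 0.00321). On the epithelial marker scale Mal2 and Mall stood at −0.22 and −0.15 and did not pass. Mal made up 8.20% to 13% of the summed FPKM of the 3 genes in WT mice and 0.439% to 0.848% in Gm31629-/- mice, a share that no library scaling can alter (exact two-sided permutation p = 0.1, the smallest that 3 libraries against 3 can give).

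The 250 bases before the RefSeq start of 4 genes are shown to set the windows of genes that behaved differently side by side, namely Mal with the largest fall, Vil1 with a small one, Ezr, which did not pass, and Msn, a relative of ezrin that rose. They are written 5′ to 3′ on the strand of the gene (GRCm38.p6, Mal at chr2:127656696-127656945 on the minus strand, Vil1 at chr1:74409134-74409383 on the plus strand, Ezr at chr17:6782781-6783030 on the minus strand and Msn at chrX:96095795-96096044 on the plus strand), and capitals mark matches to the motifs searched.
Mal: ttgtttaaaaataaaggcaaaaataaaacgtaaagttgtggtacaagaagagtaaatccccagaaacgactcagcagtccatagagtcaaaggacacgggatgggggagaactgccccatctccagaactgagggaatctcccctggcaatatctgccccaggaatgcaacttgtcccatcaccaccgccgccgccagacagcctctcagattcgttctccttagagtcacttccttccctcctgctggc
Vil1: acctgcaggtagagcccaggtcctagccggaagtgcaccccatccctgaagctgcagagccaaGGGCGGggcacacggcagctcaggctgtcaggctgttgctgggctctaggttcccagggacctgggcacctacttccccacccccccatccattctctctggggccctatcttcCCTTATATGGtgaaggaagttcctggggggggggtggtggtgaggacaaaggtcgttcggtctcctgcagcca
Ezr: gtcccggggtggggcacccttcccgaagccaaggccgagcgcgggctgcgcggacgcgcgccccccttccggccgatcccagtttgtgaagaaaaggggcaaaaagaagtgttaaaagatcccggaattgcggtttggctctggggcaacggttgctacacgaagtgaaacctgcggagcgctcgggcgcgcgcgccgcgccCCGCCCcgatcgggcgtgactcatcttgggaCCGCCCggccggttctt
Msn: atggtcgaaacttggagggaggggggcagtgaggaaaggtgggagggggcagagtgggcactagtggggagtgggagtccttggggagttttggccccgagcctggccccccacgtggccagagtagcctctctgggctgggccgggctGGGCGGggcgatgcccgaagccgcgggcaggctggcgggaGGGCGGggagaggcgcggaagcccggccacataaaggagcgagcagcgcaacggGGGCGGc

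Windows were found for 8 of the 10 genes, with 3 starts for Espn, and both strands were searched for 7 motifs. GGGCGG, the GC box bound by Sp1-type factors, occurred in 5 of the 10 windows (Espn, Ezr, Ush1c and Vil1) and in 32.7% of all 32851 windows. CAAAGT, part of the HNF4 site, occurred in that of Cdhr2 and in 12.6% of all windows. TTTATNG, a CDX-type core, was found for Espn and in 9.81% of all windows, and GTTAAT, an HNF1 core, for Cdhr2 and in 6.43%. AGATAA and TATAAA matched no window of the 10 genes, against 9.99% and 12.4% of all windows. The CArG box occurred in the window of Vil1 and in 1.47% of all windows. The window of Mal held none of the 7, and those of Ezr and Msn held only GGGCGG. These are matches of letters and not measured sites.

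Among genes of the actin core, villin was slightly lower, espin was lower on average with a wide spread, and Eps8 had higher values. Vil1 (ENSMUSG00000026175, chromosome 1, 74409376 to 74435559) encodes villin, which bundles actin and, at high calcium, severs it. It had 446, 423 and 449 FPKM in WT libraries versus 329, 261 and 344 FPKM in Gm31629-/- mice. The groups did not overlap, at a ratio of means of 0.708, and the fit gave a log2 fold change of −0.51 (SE 0.16, limma adjusted p = 0.0409). The adjusted p was 0.0538 without Gm31629-/- mouse 1, 0.0518 without Gm31629-/- mouse 2, and 0.122, 0.0874 and 0.134 without WT mice 1 to 3. On the epithelial marker scale the sign turned (log2 fold change 0.22, limma adjusted p = 0.327).

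Espn (ENSMUSG00000028943, chromosome 4, 152120331 to 152152371) encodes espin, a bundling protein that lengthens microvilli and stereocilia. Its levels were 16.8, 22.1 and 19.3 FPKM in WT mice against 15.0, 2.28 and 8.86 FPKM in Gm31629-/- mice. Every Gm31629-/- value lay below the WT range, and mouse 1 came close to it. The log2 fold change was −1.34, with a standard error of 0.53 and a limma adjusted p of 0.0758, and without Gm31629-/- mouse 1 it was −1.83 with an adjusted p of 0.0189. Without Gm31629-/- mouse 2, the lowest, it was −0.69 (adjusted p = 0.0658). With median-ratio scaling the adjusted p was 0.0445, and on the epithelial marker scale the log2 fold change was −0.68 and did not pass. Espn per Vil1 was 0.0377 to 0.0523 in WT mice against 0.0456, 0.00873 and 0.0258 in Gm31629-/- mice, so the groups overlapped (exact two-sided permutation p = 0.3).

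Eps8 (ENSMUSG00000015766, chromosome 6, 137477245 to 137654876) encodes an actin capping and bundling protein at microvillus tips. It had 19.3, 22.0 and 14.3 FPKM in WT mice, compared with 27.3, 44.3 and 25.2 FPKM in Gm31629-/- mice. All 3 Gm31629-/- values were above the WT values, with mouse 2 the highest. The log2 fold change of 0.74 (SE 0.26) had a limma adjusted p of 0.05, which is at the threshold and not under it. With median-ratio scaling it was 0.49 (limma adjusted p = 0.136), and on the epithelial marker scale it was 1.44 (adjusted p = 0.00309). Eps8 passed in 0 of 6 fits that each left out 1 mouse, with adjusted p of up to 0.169. Relative to Vil1 in the same library Eps8 was 0.0318 to 0.0521 in WT mice against 0.0733 to 0.170 in Gm31629-/- mice (exact two-sided permutation p = 0.1). Fibroblasts also express Eps8, and the marker sums of leukocytes and fibroblasts were highest in Gm31629-/- mouse 2, at 887 and 499 FPKM. The part of these cells in the Eps8 level was not tested.

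In the adhesion complex, Ush1c (harmonin) and Myo7b passed the test as lower, and Cdhr2 and Cdhr5 did not pass. Myo7b (ENSMUSG00000024388, chromosome 18) encodes the myosin that carries the complex to the tips. Its levels were 71.4, 86.1 and 81.6 FPKM in WT libraries versus 34.4, 28.9 and 33.6 FPKM in Gm31629-/- mice. The 6 values formed separate tight groups, with coefficients of variation of 9.47% and 9.27%. Its log2 fold change was −1.28 (SE 0.14, limma adjusted p = 0.000875), it passed in 6 of 6 fits without a mouse, and it was −0.56 on the epithelial marker scale (adjusted p = 0.0276).

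Ush1c (ENSMUSG00000030838, chromosome 7, 46195350 to 46238503) encodes harmonin, the scaffold that ties the protocadherin tails to Myo7b. It had 76.3, 86.2 and 86.6 FPKM in WT mice against 57.8, 29.2 and 51.2 FPKM in Gm31629-/- mice, with no overlap. For Ush1c the log2 fold change was −0.89 (SE 0.25, limma adjusted p = 0.0270). The adjusted p was 0.0617, 0.0764 and 0.0923 without WT mice 1 to 3, and on the epithelial marker scale the log2 fold change of −0.17 did not pass. Without Gm31629-/- mouse 1 Ush1c was also called, at −1.08 (adjusted p = 0.0159). The same held with median-ratio scaling, at −1.15 (adjusted p = 0.0128). Myo7b per Ush1c was close to 1 in WT mice (0.936, 1.00 and 0.942) and was 0.596, 0.989 and 0.656 in Gm31629-/- mice. Mouse 2 fell within the WT range and the other two below it (exact two-sided permutation p = 0.3).

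Cdhr2 (ENSMUSG00000034918, chromosome 13, 54701461 to 54736662) and Cdhr5 (ENSMUSG00000025497, chromosome 7, 141269083 to 141276786) encode the protocadherins whose ectodomains meet between microvilli. Cdhr2 had 318, 365 and 364 FPKM in WT mice, compared with 257, 199 and 336 FPKM in Gm31629-/- mice, and the groups overlapped. Its log2 fold change was −0.43 (95% interval −0.93 to 0.07, limma adjusted p = 0.143), and its sign turned to 0.30 on the epithelial marker scale. It was −0.62 without Gm31629-/- mouse 3 (adjusted p = 0.0423) and −0.24 without mouse 2 (adjusted p = 0.285). Cdhr5, the most abundant of the 10 transcripts in both groups, had 626, 719 and 702 FPKM in WT libraries versus 708, 451 and 776 FPKM in Gm31629-/- mice. The values of Gm31629-/- mice 1 and 3 were in or above the WT range and mouse 2 was below it. The log2 fold change of Cdhr5 was −0.12 (95% interval −0.67 to 0.44, limma adjusted p = 0.710), 0.12 without Gm31629-/- mouse 2 and 0.61 on the epithelial marker scale (adjusted p = 0.0478).

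The ratio of the protocadherins varied little among WT mice and was higher in all 3 Gm31629-/- mice. Cdhr5 per Cdhr2 was 1.97, 1.97 and 1.93 in WT mice against 2.75, 2.27 and 2.31 in Gm31629-/- mice, without overlap (2.44 ± 0.27 against 1.96 ± 0.025, SD, n = 3 each; exact two-sided permutation p = 0.1). Being a ratio within each library, it does not depend on scaling. Further partners of the complex were fixed for the comparison. Anks4b, an ankyrin-repeat scaffold, had 34.5 ± 7.45 FPKM in WT mice against 38.2 ± 15.8 FPKM in Gm31629-/- mice, and Calml4, a light chain of Myo7b, 27.6 ± 3.83 and 21.6 ± 7.76 FPKM (SD, n = 3 each; limma adjusted p = 0.825 and 0.286).

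Neither of the membrane linkers passed the test. Myo1a (ENSMUSG00000025401, chromosome 10, 127705170 to 127720940), the class I myosin that bridges the core bundle and the membrane along its length, had 296, 352 and 352 FPKM in WT mice, compared with 251, 128 and 231 FPKM in Gm31629-/- mice. The groups did not overlap, and mouse 2 was again the lowest. Its log2 fold change was −0.77 (SE 0.27) with a limma adjusted p of 0.0540. It was −0.95 without Gm31629-/- mouse 1 (adjusted p = 0.0341) and smaller, −0.46, without mouse 2 (adjusted p = 0.0465). With median-ratio scaling Myo1a passed at an adjusted p of 0.0243. On the epithelial marker scale the log2 fold change was −0.04. Myo1a per Vil1 was 0.663 to 0.832 in WT mice against 0.488 to 0.763 in Gm31629-/- mice, with overlap (exact two-sided permutation p = 0.3).

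Ezr (ENSMUSG00000052397, chromosome 17, 6738041 to 6782784) encodes ezrin, which links the membrane to actin when phosphorylated. It had 233, 283 and 240 FPKM in WT libraries versus 286, 267 and 271 FPKM in Gm31629-/- mice. The groups overlapped, and mouse 2 did not stand apart. For Ezr the log2 fold change was 0.13 (95% interval −0.22 to 0.47, limma adjusted p = 0.501), −0.13 with median-ratio scaling and 0.86 on the epithelial marker scale (adjusted p = 0.00496).

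Ezrin has 2 close relatives, moesin (Msn) and radixin (Rdx), which do the same work in leukocytes, endothelium and other cells. Msn had 2.68, 3.04 and 2.60 FPKM in WT mice against 24.6, 51.2 and 27.6 FPKM in Gm31629-/- mice. Rdx had 0.373, 0.754 and 0.252 FPKM in WT mice, compared with 7.83, 12.2 and 8.86 FPKM in Gm31629-/- mice. Both rose, with log2 fold changes of 3.16 and 2.86 (limma adjusted p = 0.000374 and 0.000281). Ezrin made up 98.7%, 98.7% and 98.8% of the summed FPKM of the family in WT mice against 89.8%, 80.8% and 88.2% in Gm31629-/- mice. The share was lower by 12.5 percentage points on average (exact two-sided permutation p = 0.1). Leukocyte, fibroblast and endothelial markers rose with Msn and Rdx, as given above, and their part in the share was not tested.

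**Figure D2:**
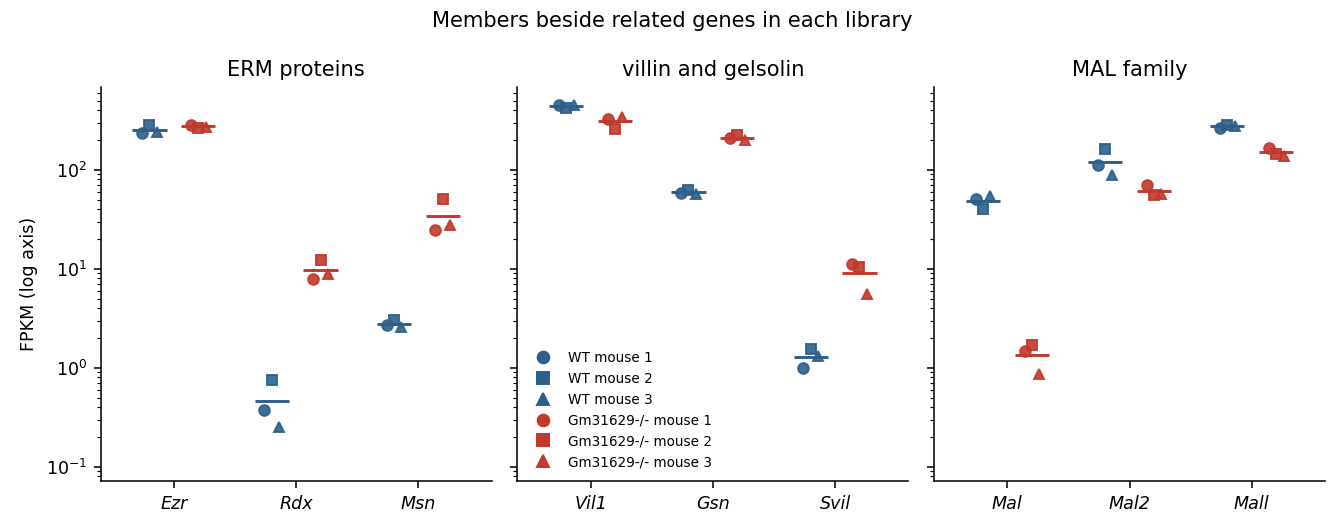
FPKM per library, on a log axis, of ezrin, villin and Mal beside relatives, with WT mice in blue, Gm31629-/- mice in red and bars for group means. Rdx, Msn, Gsn and Svil lie higher in all 3 Gm31629-/- mice, Ezr overlaps between groups, and Mal, Mal2 and Mall lie lower as deposited.

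Relatives of the 10 genes, 20 in all, held 9 that passed as higher and 4 that passed as lower, beside 28.9% and 14.6% of all tested genes. Myo1d, Myo1e, Eps8l2, Eps8l3 and Mal2 are also counted among the 37 other brush border genes below. After rescaling to the epithelial markers, 14 passed as higher and 0 as lower, beside 53.5% and 2.69%. In the villin family, gelsolin (Gsn), an actin severing protein of many cell types, had 59.6 ± 3.33 FPKM in WT libraries versus 211 ± 11.8 FPKM in Gm31629-/- mice (SD, n = 3 each; limma log2 fold change 1.81, adjusted p = 0.000242). Supervillin (Svil), found in muscle, rose from 1.28 ± 0.277 to 9.0 ± 3.06 FPKM (log2 fold change 2.09, adjusted p = 0.00137), and Vill by 1.45 (adjusted p = 0.00630). Avil passed at an adjusted p of 0.0317 and only in 1 of 6 fits without a mouse, with 0.0769, 0.0809, 0.0996, 0.0745 and 0.0883 without Gm31629-/- mice 1 and 2 and WT mice 1 to 3. Flii had a log2 fold change of −0.56 (adjusted p = 0.0151, and 0.0529 and 0.0631 without WT mice 2 and 3), which was 0.16 on the epithelial marker scale. Villin was 87.0% to 88.8% of the sum of Vil1 and Gsn in WT mice and 53.8% to 63.1% in Gm31629-/- mice. Among class I myosins, Myo1f and Myo1g of blood cells rose by 1.65 and 1.47 on the log2 scale (adjusted p = 0.00613 and 0.00283). Myo1d, the short-tailed myosin that shares the brush border with Myo1a, was lower at −0.99 (adjusted p = 0.00186).

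Exons of Vil1, Ush1c and Ezr share 49, 120 and 4 bases with Usp37, Gm9860 and Sytl3 on the other strand, and the library kit does not mark strand, so reads there cannot be told apart. Levels of the 10 genes spanned a wide range in WT mice. In order of group means they ran Cdhr5, Vil1, Cdhr2, Myo1a, Ezr, Ush1c, Myo7b, Mal, Espn and Eps8. Neighbors whose ranges overlapped were Cdhr2 with Myo1a, Ush1c with Myo7b, and Espn with Eps8, although Cdhr2 exceeded Myo1a and Ush1c exceeded Myo7b in each of the 3 libraries. In Gm31629-/- mice the order was Cdhr5, Vil1, Ezr, Cdhr2, Myo1a, Ush1c, Myo7b, Eps8, Espn and Mal. Vil1 overlapped with Ezr, Ezr with Cdhr2, Cdhr2 with Myo1a, Ush1c with Myo7b, and Myo7b with Eps8. Together the 10 genes held 0.610% to 0.694% of all FPKM in WT libraries and 0.421% to 0.579% in Gm31629-/- libraries.

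The spread between libraries of a group differed as well. Coefficients of variation ran from 3.34% (Vil1) to 21.2% (Eps8) in WT mice and from 3.72% (Ezr) to 73.0% (Espn) in Gm31629-/- mice. Mouse 2 had the lowest value of its group for 8 of the 10 genes and the highest for Eps8 and Mal, and mouse 3 was lowest for Mal and Eps8. In mouse 2 the sum of 9 absorptive colonocyte markers was 2626 FPKM, against 6179 and 7439 FPKM in Gm31629-/- mice 1 and 3 and 8015 to 9506 FPKM in WT mice. The sum weighs abundant genes most, and Car1 alone had 3886 to 5459 FPKM in WT mice. The 9 did not move alike. As deposited, 5 had a negative log2 fold change and 4 a positive one, namely Car4 (1.31), Slc26a3 (1.02), Aqp8 (1.02) and Ceacam20 (0.59). Among the positive ones Ceacam20 alone passed. Krt20 was highest of its group in mouse 2, at 984 FPKM against 658 and 633 FPKM. Without mouse 2, the genes that passed as lower were Ush1c, Myo7b, Myo1a and Mal, again 4 of 10. Without mouse 1, the library with Y-linked transcripts, they were Espn, Ush1c, Myo7b, Myo1a and Mal. In each of these fits 13.5% of all tested genes passed as lower.

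**Figure D3:**
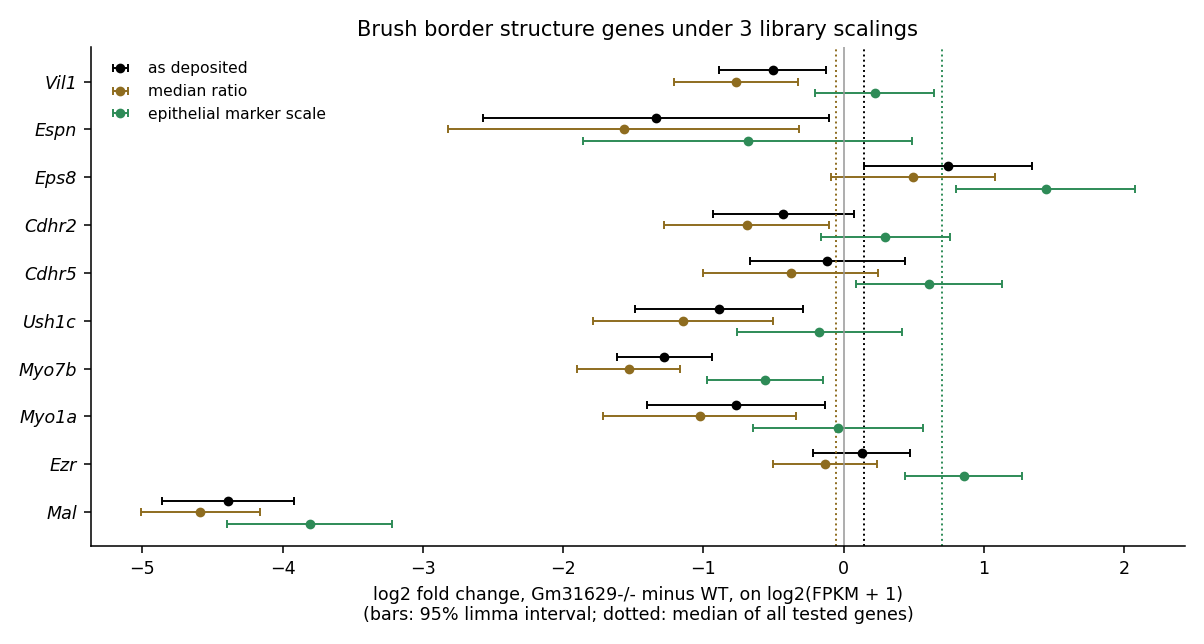
Log2 fold change of Gm31629-/- over WT mice for the 10 genes as deposited, with median-ratio scaling and on the epithelial marker scale, with 95% limma intervals before adjustment and dotted lines at the median of all tested genes. Mal and Myo7b lie below 0 and Eps8 above 0 under all 3 scalings, and Vil1, Cdhr2, Cdhr5 and Ezr change sign between them. With median-ratio scaling the interval of Eps8 includes 0.

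Other genes of the brush border, 37 fixed by role, moved in both directions. Of the 33 that were tested, 9 passed as lower and 6 as higher (14.6% and 28.9% of all tested genes), with a median log2 fold change of −0.38. On the epithelial marker scale, 2 passed as lower, Alpi and Ggt1, and 11 as higher (2.69% and 53.5% of all tested genes). With median-ratio scaling 14 passed as lower and 3 as higher (24.8% and 24.7% of all tested genes), and Eps8l3, Clic5 and Rab11a no longer passed. Without Gm31629-/- mouse 1 the counts were 12 and 5 (13.5% and 28.0% of all tested genes). Without WT mouse 3 they were 5 and 3 (6.69% and 19.1% of all tested genes).

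Among 7 genes of core actin and assembly, Clic5, which associates with ezrin in microvilli and stereocilia, had 32.7 ± 9.66 FPKM in WT mice against 69.1 ± 30.4 FPKM in Gm31629-/- mice (SD, n = 3 each; limma log2 fold change 1.01, adjusted p = 0.0397), with adjusted p of 0.0646, 0.106 and 0.138 without Gm31629-/- mouse 1, WT mouse 2 and WT mouse 3. Eps8l3, a relative of Eps8, had 108 ± 12.3 and 169 ± 17.9 FPKM (log2 fold change 0.64, adjusted p = 0.0148, and 0.0620 and 0.0665 without WT mice 1 and 3). The bundler plastin-1 (Pls1) had 73.4 ± 20.5 and 88.9 ± 37.7 FPKM, with a 95% interval of the log2 fold change of −0.54 to 1.01. Cobl, Baiap2l1 and Eps8l2 did not pass, and neither did Tmigd1, an adhesion protein of mature enterocytes, at 30.0 to 43.4 FPKM in WT mice, compared with 37.2, 3.99 and 6.19 FPKM in Gm31629-/- mice. Its log2 fold change was −1.72 (adjusted p = 0.0818), and −2.61 without Gm31629-/- mouse 1 (adjusted p = 0.000607).

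Of 5 motors, Myo1d and Myo5b passed as lower. Myo5b, which moves recycling endosomes to the apical membrane and is mutated in microvillus inclusion disease, had 43.2 ± 4.59 FPKM in WT libraries versus 23.3 ± 7.00 FPKM in Gm31629-/- mice (log2 fold change −0.89, limma adjusted p = 0.0152, and 0.0534 and 0.0575 without WT mice 2 and 3). Myo6, Myo1e and Myh14 did not pass, with −0.50 for Myo6, which passed at −0.63 without Gm31629-/- mouse 1 (adjusted p = 0.0207). Among ezrin partners, the scaffold Pdzd3 was lower (19.9 ± 3.12 and 7.62 ± 3.39 FPKM, adjusted p = 0.0130, and 0.0524 without WT mouse 3), the scaffold Slc9a3r2 was higher (5.73 ± 0.487 and 18.7 ± 7.06 FPKM, adjusted p = 0.00688), and the ezrin kinase Slk was higher (7.08 ± 1.30 and 15.8 ± 4.48 FPKM, adjusted p = 0.0109). Slc9a3r1, the main ezrin scaffold of the brush border, did not pass at 327 ± 32.6 and 257 ± 77.3 FPKM (adjusted p = 0.237). Pdzk1 had at most 1 fragment in any library. In apical delivery, Rab8a had a log2 fold change of −0.56 and Rab11a of 0.61 (adjusted p = 0.0146 and 0.0193), neither passed without WT mouse 1 (0.0517 and 0.0572) or WT mouse 3 (0.0677 and 0.0814), and Rab8a turned to 0.15 on the epithelial marker scale.

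Enzymes anchored in the brush border membrane held the largest log2 fold changes among these 37. Alpi, intestinal alkaline phosphatase, had 40.8, 52.9 and 55.7 FPKM in WT mice against 8.23, 0.510 and 0.722 FPKM in Gm31629-/- mice. All 3 Gm31629-/- values were below the WT range, and mouse 1 was above the other two (log2 fold change −4.13, SE 0.65, adjusted p = 0.00292 by limma). Ggt1, a γ-glutamyltransferase, had 20.5 ± 1.59 FPKM in WT mice, compared with 3.63 ± 2.36 FPKM in Gm31629-/- mice (log2 fold change −2.37, adjusted p = 0.00393). Both also passed on the epithelial marker scale, at −3.54 and −1.76. The maltase Mgam had a log2 fold change of −0.84 (adjusted p = 0.00582) and was at −0.14 on that scale. The metalloprotease subunit Mep1a had 159 ± 27.9 and 51.7 ± 36.7 FPKM (log2 fold change −1.99, adjusted p = 0.0455), and it did not pass without Gm31629-/- mouse 3 (0.0626) or WT mice 1 to 3 (0.0946, 0.119 and 0.114). Without Gm31629-/- mouse 2, at 11.2 FPKM, its log2 fold change was −1.14 (adjusted p = 0.00815). Its partner Mep1b had 120 ± 25.0 and 108 ± 33.1 FPKM (adjusted p = 0.611). Anpep, an aminopeptidase that myeloid cells and fibroblasts also carry, was higher, at 2.20 ± 1.48 and 7.90 ± 3.79 FPKM (log2 fold change 1.49, adjusted p = 0.0204, and 0.0723 and 0.0677 without WT mice 1 and 2). Dpp4 and Enpep did not pass, and Sis, Lct and Treh, disaccharidases of the small intestine, were below the filter with at most 63 fragments in a library.

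**Figure D4:**
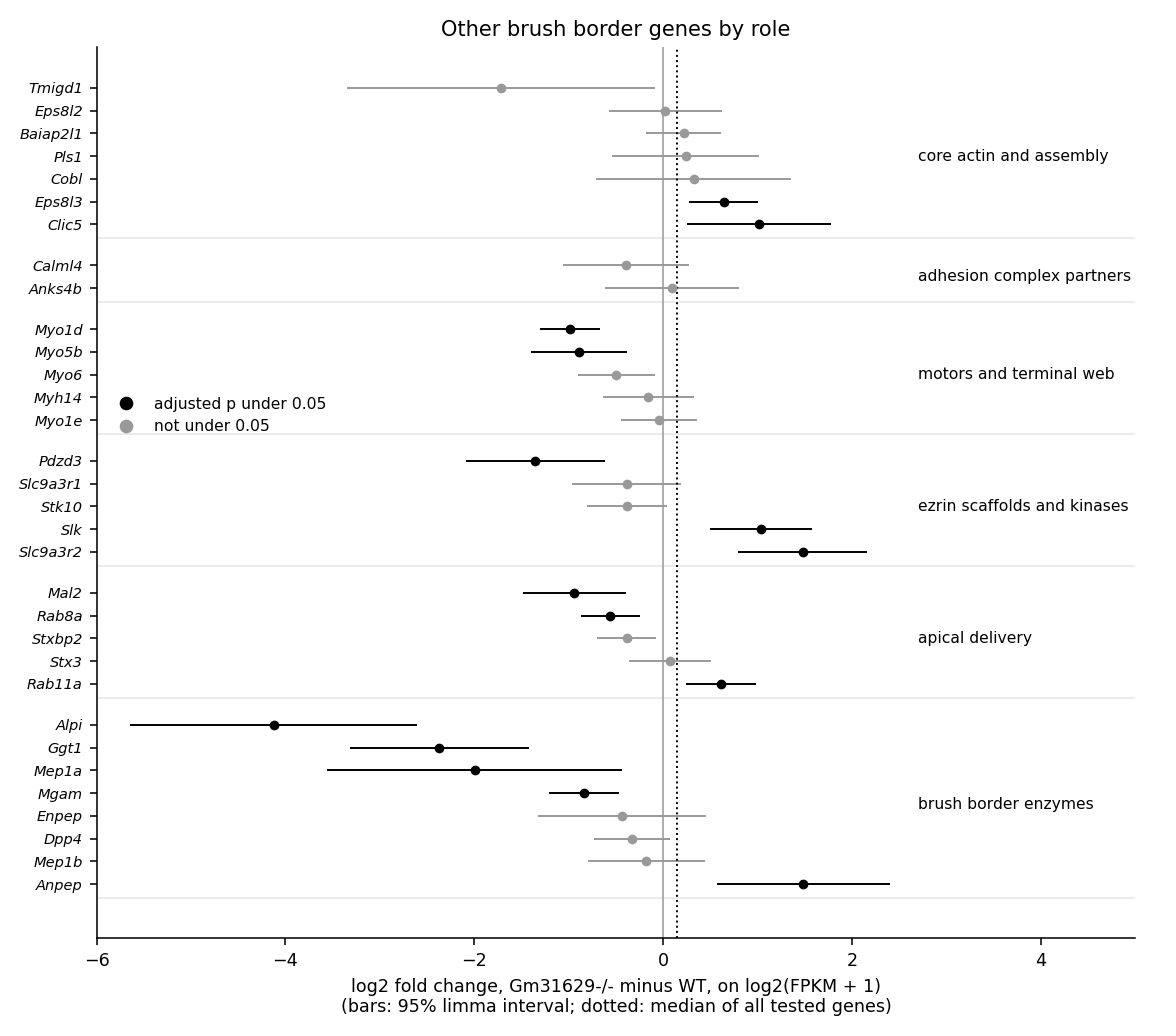
Log2 fold change of Gm31629-/- over WT mice for other brush border genes that were tested, as deposited, grouped by role, with 95% limma intervals before adjustment, black where the adjusted p was under 0.05. Alpi at −4.13 and Ggt1 at −2.37 lie lowest, Slc9a3r2 and Anpep highest, and of the genes in black Rab8a turns sign on the epithelial marker scale.

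Genes whose profile over the 6 libraries was most like that of Vil1 were sought among 7241 other genes with a mean of at least 5 FPKM. The 5 closest were Atp5d (Pearson r = 0.997), Stard10 (0.996), Cox4i1 (0.995), 2410015M20Rik (0.994) and Tpi1 (0.994). All 5 were lower in every Gm31629-/- library than in any WT library, with log2 fold changes of −0.88, −1.06, −0.89, −0.67 and −0.75. That separation largely follows from choosing genes like Vil1, whose own groups did not overlap. Within the 10 genes, likeness to Vil1 was highest for Ush1c (r = 0.964, rank 174) and negative for Eps8 (−0.947) and Ezr (−0.522). These correlations describe 6 points that share 1 contrast of genotype.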

How the data were processed

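RNA-Seq of colon from 3 Gm31629-/- and 3 WT mice was deposited by the authors as 1 table of FPKM per gene. Per the submitters' processing notes, HISAT2 2.1.0, HTSeq 0.6.0 and GRCm38 were used, and the gene annotation is not given in the sources used here. Of 27546 gene IDs, 27488 were matched to symbols. Gm31629 was looked up by symbol and 0 entries of the table matched.

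Depth was recovered from the steps of low FPKM values. Between 96.3% and 97.2% of values of up to 20 fragments came out whole within 0.1 fragments.

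Genotypes were compared two-sided with limma 3.58.1 (R 4.3.3; lmFit, eBayes with trend) on log2(FPKM + 1), over 14657 genes with a mean of at least 0.5 FPKM, with Benjamini-Hochberg adjustment. Folds on this scale understate changes of low genes. The study itself used DEGseq. The fit was tested on simulated data. Ratios within a library were compared by exact permutation tests.

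All 10 members were named, genes of lists fixed by role or family were counted whole and could be named, and the 5 genes most like Vil1 by Pearson r were named. The members and lists were chosen with earlier results of these data known. Alternatives were other pseudocounts, filters and scalings, voom on recovered fragments, a replicate block, and each library left out. Shared replicate numbers were taken as names only. Promoter windows were read from RefSeq (GRCm38.p6). No replicate pair differed by less than sampling noise. Some genes of the lists are counted in their totals and are not reported here by name.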

Additional observations from a re-analysis of the deposited data

How the results depend on the processing

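Mal and Myo7b kept their direction and passed as lower under all 14 alternatives run. Of all tested genes, 2704 were called higher and 680 lower, of which calls 79.9% were higher. With a filter of at least 5 FPKM 956 were called higher (66.0% of calls), with median-ratio scaling 1217 were called lower (64.7% higher), and on the epithelial marker scale 4981 and 217 were called (95.8% higher). Leaving out 1 library gave 2285 to 2892 higher and 513 to 766 lower. The 4 brush border genes that passed as lower became 2 without a filter and 2 on the epithelial marker scale, and 2 to 5 with 1 library left out, 2 without each WT mouse. The share of all tested genes passing as lower was 6.72%, 2.69% and 6.69% to 13.5% in these fits. In place of 0, the number that passed as higher was 1 with a pseudocount of 0.1, 1 with voom and 1 with the replicate block, each time Eps8, and 3 on the epithelial marker scale. The share of all tested genes passing as higher was 29.9%, 29.1%, 26.4% and 53.5%, in that order. In place of 2, the number called lower was 5 with median-ratio scaling, 1 on the epithelial marker scale and 2 to 4 with 1 library left out, 4 without Gm31629-/- mouse 1. In the main fit 680 of 14657 tested genes (4.64%) were called lower. Of all tested genes, 1217 were called lower with median-ratio scaling, 217 on the epithelial marker scale and 766 without Gm31629-/- mouse 1. Signs turned on the epithelial marker scale for Vil1 (0.22), Cdhr2 (0.30) and Cdhr5 (0.61), without Gm31629-/- mouse 2 for Cdhr5 (0.12, in a range of −0.27 to 0.12 with 1 library left out) and with median-ratio scaling for Ezr (−0.13). The rescalings shift all genes by construction, and for the other changes the cause was not tested. The difference in ezrin share of −12.5 percentage points ranged from −14.3 to −9.75 with 1 library left out, and on the log2 scale ezrin minus the mean of its relatives differed by −2.88.

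With the replicate block, 2709 genes were called higher and 648 lower, and the limma adjusted p of Vil1 was 0.0857. In that fit 3 of the 10 genes passed as lower, where 10.3% of all tested genes did. Deviations of same-numbered mice correlated at 0.0358, −0.108 and 0.0141, so the numbers did not pair the samples. With 3 libraries per group, only Mal among the 10 genes rested on under 100 fragments in a library.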

Other observations

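The inner ear builds its stereocilia with relatives of the brush border adhesion genes, and 6 of these were read in the colon. Cdh23, Pcdh15, Ush1g and Espnl were below the filter in these libraries, with at most 0.138 FPKM each. Myo7a, the relative of Myo7b, had 3.42, 3.98 and 4.53 FPKM in WT mice and 2.86, 4.86 and 3.57 FPKM in Gm31629-/- mice, which overlapped (limma adjusted p = 0.771). Whrn, a relative of Ush1c, had 1.80, 1.95 and 2.78 FPKM in WT mice and 1.51, 1.66 and 1.20 FPKM in Gm31629-/- mice (limma adjusted p = 0.147). Neither passed.

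Goblet cell markers moved in both directions beside the brush border genes. Of 7, 4 passed as higher and 2 as lower. Clca1, Zg16, Tff3 and Fcgbp, products of goblet cells released into mucus, had log2 fold changes of 2.96, 2.1, 1.71 and 1.09 (limma adjusted p = 0.000601, 0.00123, 0.00191 and 0.0119). Agr2 and Spdef, which act in goblet cell maturation, had −1.0 and −0.97 (adjusted p = 0.0142 and 0.00309) and did not pass on the epithelial marker scale. Among 9 absorptive colonocyte markers, Car1 and Guca2b passed as lower and Ceacam20 as higher. Of 5 tested crypt base markers Axin2 passed as lower, and of 2 tested squamous markers Krt14 passed as higher. Ceacam20 and Krt14 each passed in 1 of 6 fits that left out a library (Ceacam20 without Gm31629-/- mouse 2 and Krt14 without Gm31629-/- mouse 3), with adjusted p of up to 0.127 and 0.0918 in the other fits. Axin2 did not pass without Gm31629-/- mouse 3 (0.0505) or WT mouse 1 (0.0510), and Car1, Guca2b and Fcgbp did not pass without WT mouse 3 (0.0504, 0.0523 and 0.0581).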
